A study of Mus musculus with 4 samples.

Results

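The genes described here were 9 subunits of ionotropic glutamate receptors, namely Gria1, Gria2, Gria3, Gria4, Grik1, Grik2, Grin2a, Grin2b and Grid1, followed through the non-neuronal cells of fetal mouse leg muscle. They are 9 of the 26 genes for ionotropic and metabotropic glutamate receptors among the 32285 genes counted. The 9 were chosen by their measured unique molecular identifier (UMI) levels in fibroblast subtypes, pericytes, glia and myogenic cells of these same libraries, so the levels are given as a description, without a test between cell classes. The comparison of genotypes was tested. The libraries were made from leg muscles of E18.5 fetuses, close to birth, with 2 wild-type (WT) libraries and 2 libraries of SYISL knockout (KO) fetuses. SYISL is a long noncoding RNA gene within Synpo2, and the WT and KO fetuses were littermates from heterozygous parents, the limb muscles of each fetus having been collected separately. The KO mouse line was made in earlier work of the same group, and the fetuses were genotyped from their tails. The sources used here do not state outright whether 1 library is 1 fetus, and if it is not, p-values measure only the spread between these libraries. No counted feature is named SYISL, and the deletion could not be checked in the counts.

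Ionotropic glutamate receptors are cation channels opened by glutamate and built from 4 subunits. AMPA receptors (Gria genes) carry fast excitatory current, kainate receptors (Grik genes) carry slower current and also signal through G proteins, and NMDA receptors (Grin genes) admit calcium and need the obligatory subunit encoded by Grin1 in every channel. Delta receptors (Grid genes) bind glycine or D-serine and work mainly as adhesion molecules that hold cerebellin proteins. These genes are best known from synapses of the brain. At the mouse neuromuscular junction the transmitter is acetylcholine, while the Schwann cells of peripheral nerve and several connective tissue cells are known to carry some of the same receptor genes.

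In Gria2 and in the kainate subunits Grik1 and Grik2, 1 codon in the loop that lines the channel pore governs how much calcium passes, and the RNA-editing enzyme ADAR2 can recode it from glutamine to arginine. Gria1, Gria3 and Gria4 have a glutamine codon at the same place but are not known to be edited there. This place was located in the annotated reference transcripts (GENCODE vM21, GRCm38) by searching for a methionine codon followed by a pair of glutamine codons and a glycine codon, and it was found in the 4 Gria and both Grik members but not in Grin2a, Grin2b or Grid1. These windows of 30 bases are shown because Gria2, the subunit whose edited form makes AMPA channels nearly impermeable to calcium, had the narrowest distribution among the Gria genes below. The capitals mark the glutamine codon, as written in the genome:
Gria1: tggttctcgctgggggccttcatgCAGcaa
Gria2: tggttttccttgggtgcctttatgCAGcaa
Gria3: tggttttccttgggtgcttttatgCAGcaa
Gria4: tggttttccctgggtgcctttatgCAAcaa
Grik1: tggtttggcgttggagctctcatgCAGcaa
Grik2: tggtttggagttggagctctcatgCAGcaa
Each window lies within 1 coding exon. They are at chr11:57243070-57243099 (plus strand, exon 11 of 16) for Gria1, chr3:80706908-80706937 (minus, exon 11 of 16) for Gria2 and chrX:41610241-41610270 (plus, exon 11 of 16) for Gria3. Those of Gria4, Grik1 and Grik2 are at chr9:4464134-4464163 (minus, exon 12 of 17), chr16:87940539-87940568 (minus, exon 13 of 18) and chr10:49244326-49244355 (minus, exon 12 of 16). The codon is number 607 of the Gria2 coding sequence and number 621 of that of Grik2. Counts of UMIs per gene hold no information on editing, so the edited share was not measured here.

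The 9 members are long genes. Their bodies span 121 kb (Gria2) to 763 kb (Grid1) with a median of 394 kb, against a median of 17.4 kb over 21625 protein-coding genes, and 8 of the 9 fall in the longest 5% of those genes. Exons cover 0.78% of the body of Grid1 and 12.8% of that of Gria2. Whether reads in introns were counted is not given in the sources used here. UMIs of these genes may therefore include unspliced RNA, and levels are compared within a gene across cells, never between genes. The gene bodies (GRCm38) are chr11:57011387-57330244 for Gria1, chr3:80681450-80802835 for Gria2, chrX:41400854-41678601 for Gria3, chr9:4417896-4796234 for Gria4 and chr16:87895900-88290265 for Grik1. Those of the others are chr10:49094833-49788766 for Grik2, chr16:9567898-9995560 for Grin2a, chr6:135713233-136173511 for Grin2b and chr14:34820108-35583379 for Grid1. Grik2 overlaps 2 annotated noncoding genes on its own strand, which held 85 and 16 UMIs against 21265 of Grik2, and Grin2b overlaps 3 genes on the opposite strand with 1 to 68 UMIs against 6998.

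After filtering, 36969 of 41741 barcodes were kept, with 8515, 8177, 9816 and 10461 cells in WT replicates 1 and 2 and KO replicates 1 and 2. The median depth per cell was 9118 to 11427 UMIs, and any pair of libraries shared 15 to 27 kept barcodes. By Xist, KO replicate 2 was female and the other 3 libraries were not. Cells were clustered without the 26 receptor genes and sorted into 18 classes by marker genes. There were 4 fibroblast groups, 18113 cells in all, which are called fibro-adipogenic progenitors (FAPs) when pooled. They are fibroblasts marked by Smoc2 and Hpse2 (7966 cells), adventitial-type fibroblasts with Pi16 and Dpp4 (5853), cycling fibroblasts (2528) and fibroblasts marked by Ccl11 and Hhip (1766). The mural cells (1742) held 612 pericytes and 418 vascular smooth muscle cells. The myogenic cells (6730) held 2927 progenitors, 1833 cycling cells, 898 myoblasts and 99 myotubes. A further 712 mural and 973 myogenic cells got no finer name and count only in the pooled mural and myogenic values. The peripheral glia (1463 cells) had the myelin genes Mal and Mbp, and Egfl8, among their leading genes. A neighbouring cluster of 368 cells was led by Fabp7, Syt1, Ptprz1, Luzp2 and Cntn6, and is called the Fabp7-led cells, without a cell type name.

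The unit of every level is CPM, that is, how many of each 1000000 UMIs summed over the cells of a class in a library belonged to the gene. The label non-neuronal was checked against 12 neuronal markers. Rbfox3, which marks mature neurons, stayed at or below 0.75 CPM in every class, Snap25, a protein of transmitter release, at or below 0.97 CPM, and Chat, the acetylcholine-making enzyme, at or below 0.11 CPM. The Fabp7-led cells had 531 CPM of Syt1, a calcium sensor of vesicles, but no other of the 12 neuronal markers reached 10 CPM there and all 8 glial markers did. In glia 1 neuronal marker reached 10 CPM, Tubb3 at 14.0 CPM, and in endothelial cells it was Stmn2 at 102 CPM. In adventitial-type fibroblasts Stmn2, Nefl and Nefm stood at 20.8, 18.4 and 23.5 CPM. The part of neuronal RNA in the receptor levels was otherwise not tested.

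Of the 9 members, 8 reached a mean of 10 CPM in at least 1 of the 18 classes, and their highest classes differed. Grik2 and Gria2 were highest in glia, Gria3 and Gria4 in the Fabp7-led cells, Grin2b in Smoc2/Hpse2 fibroblasts, Grin2a in adventitial-type fibroblasts, Grid1 in cycling fibroblasts and Grik1 in cycling myogenic cells. Gria1 stayed at or below 3.13 CPM everywhere. Pericytes held 0 UMIs of Gria1, Gria2 and Grik1, which allows up to 0.56 CPM each when their libraries are pooled, and no member exceeded 6.65 CPM in them.

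**Figure D1:**
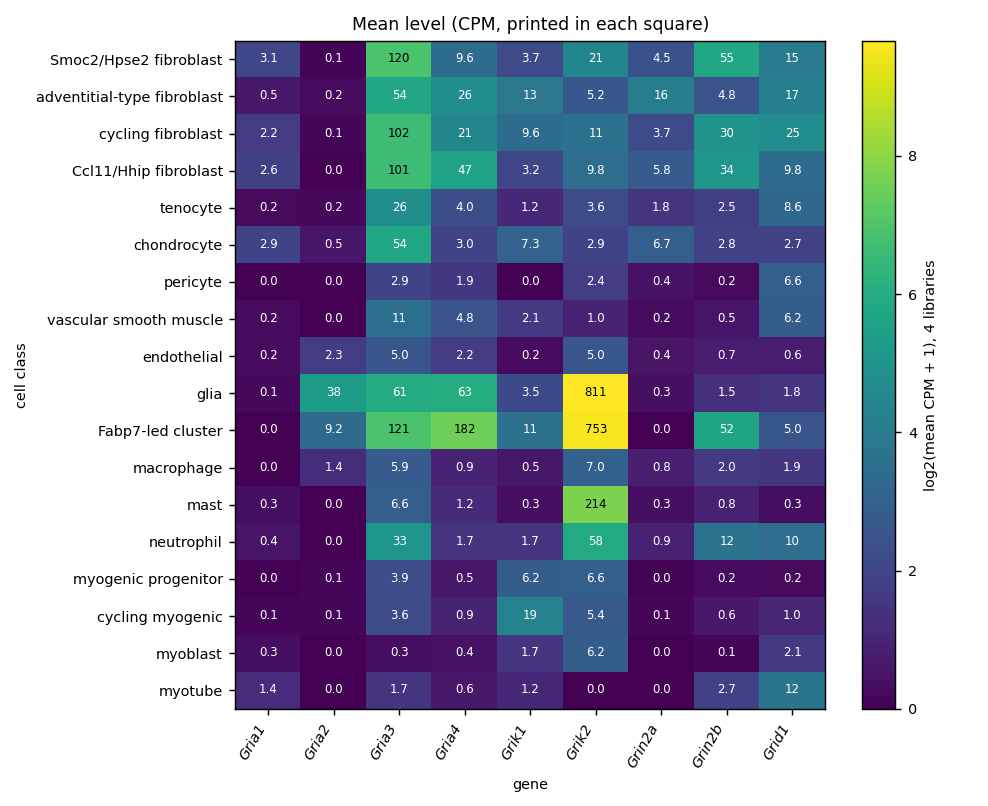
Mean level over 4 libraries (CPM, colour on a log scale, value printed in each square) of the 9 genes (columns) in 18 cell classes (rows). Columns are to be read down the cell classes and not against each other: Grik2 stands at 811 CPM in glia and 753 CPM in the Fabp7-led cells, while Gria3 is at or above 100 CPM in 3 fibroblast groups and in the Fabp7-led cells.

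Grik2, a kainate receptor subunit that can form channels on its own, was highest in glia. Glia of the WT fetuses gave 829 and 886 CPM, and those of the KO fetuses 805 and 723 CPM, a mean of 811 ± 67.8 CPM (SD, n = 4 libraries). In the Fabp7-led cells it stood at 855, 718, 698 and 739 CPM, in the order WT replicate 1, WT replicate 2, KO replicate 1, KO replicate 2, which is the order of every set of 4 values that follows. The glial and Fabp7-led values overlapped, with a ratio of 1.08. The ratio of glia to Smoc2/Hpse2 fibroblasts, the highest of the fibroblasts at 20.8 ± 7.57 CPM, was 39.0 and ran from 28.6 to 64.7 over the 4 libraries. Glia made up 4.0% of cells and the Fabp7-led cells fewer, so the 14057 glial and 3094 Fabp7-led UMIs of Grik2 came from a small part of the muscle.

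Mast cells were the next class. Grik2 stood at 355, 231, 166 and 106 CPM in them, a mean of 214 ± 107 CPM. The summed glial markers of the mast cells stood at 223, 10.5, 83.0 and 79.1 CPM. WT replicate 1 was highest for both Grik2 and these markers, and WT replicate 2 was lowest for the markers alone. Their part in the Grik2 values was not tested. WT replicate 1 held 49 mast cells, under the minimum of 50, so the genotypes were not tested in mast cells. Macrophages, which also come from the blood lineage, had 17.0, 5.70, 2.56 and 2.63 CPM. The mast cell level was 30.8 times that of macrophages, with library ratios of 20.9 to 64.8.

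RNA freed from glia into other droplets would carry Grik2 and glial marker RNA in the glial proportion, and that proportion was measured in each class. In glia there were 56.7 Grik2 UMIs per 100 UMIs of Mbp, Cdh19 and Sox10 together, with 53.1 to 66.9 over the libraries, and in macrophages 22.5. In mast cells there were 825 per 100, with 500 to 3850 over the libraries and 71 marker UMIs in all. In Smoc2/Hpse2 fibroblasts there were 1048 per 100, with 578 to 1400 and 157 marker UMIs. The value lay above that of glia in most other classes too, for example at 383 in cycling myogenic cells, 382 in Ccl11/Hhip fibroblasts, 313 in progenitors and 235 in myoblasts, on 26 to 52 marker UMIs each. The part of free RNA in the levels of these classes was not tested. Neutrophils had 120, 3.58, 90.5 and 19.8 CPM of Grik2 with 69.4 UMIs per 100 UMIs of these markers, from 4.35 to 150 over the libraries. Their mean of 58.4 CPM became 6.39 CPM when the cells called doublets by Scrublet were left out, and the summed glial markers (368, 93.0, 640 and 13.2 CPM) were also highest in both replicate 1 libraries.

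**Figure D2:**
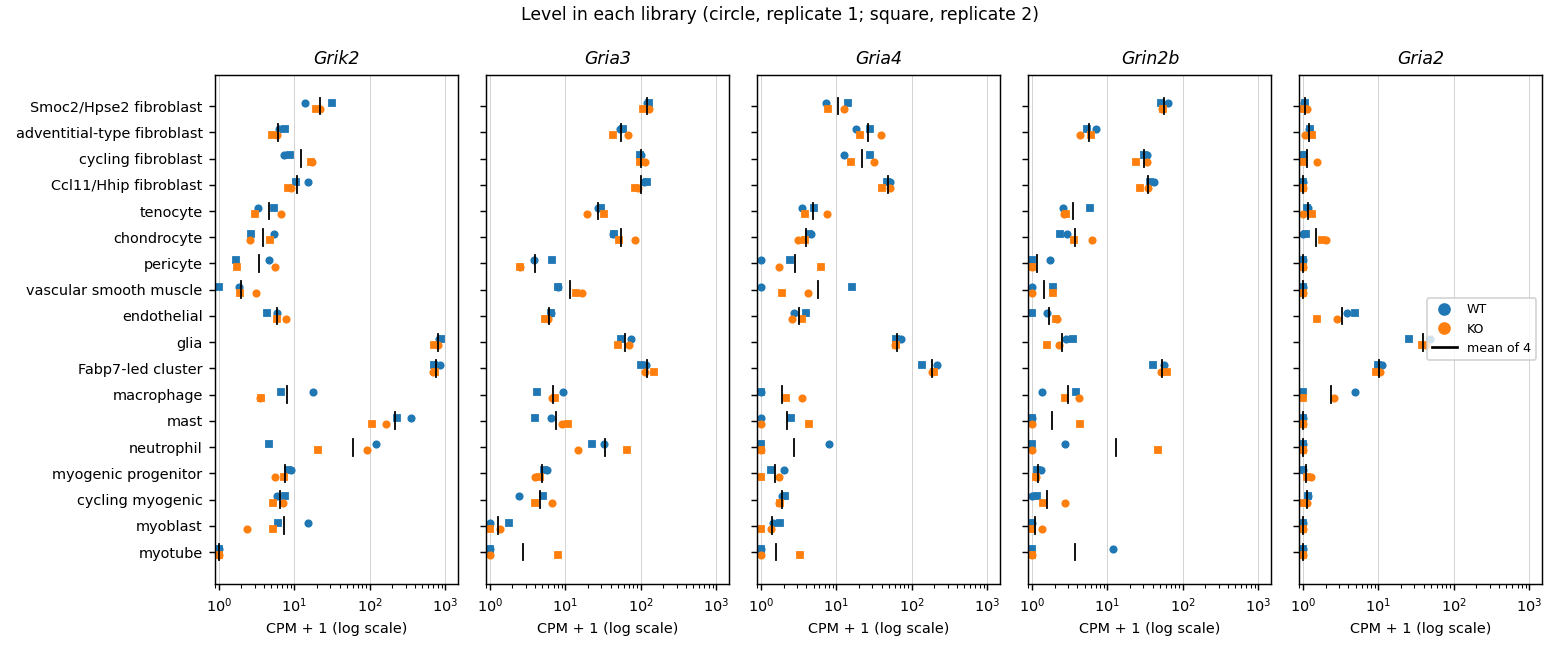
Level of Grik2, Gria3, Gria4, Grin2b and Gria2 (CPM + 1, log axis) in each library of each cell class. Blue points are WT and orange points KO, circles are replicate 1 and squares replicate 2, and the line is the mean of the 4 libraries. The libraries of 1 class lie close together where the gene is high, as for Gria3 in Smoc2/Hpse2 fibroblasts (105 to 127 CPM), and scatter where few cells or UMIs are behind the value, as for Grik2 in neutrophils (3.58 to 120 CPM).

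Grik1, the other kainate subunit of the set, had its highest mean in cycling myogenic cells. It stood at 20.2, 20.8, 23.9 and 11.4 CPM in cycling myogenic cells, 19.0 ± 5.38 CPM, against 6.18 ± 2.85 CPM in progenitors and 1.71 CPM in myoblasts. The cycling cells lay above progenitors in each library, by 2.52 to 4.41 times, and above myoblasts by 5.33 to 22.9 times. Adventitial-type fibroblasts followed at 13.1 ± 6.66 CPM and overlapped with the cycling myogenic cells, as did the Fabp7-led cells and cycling fibroblasts. Since fibroblasts were many, FAPs held 57.2% of all Grik1 UMIs and cycling myogenic cells 18.0%. Grik1 was at 20.0 and 16.3 CPM in the WT adventitial-type fibroblasts and 4.60 and 11.5 CPM in the KO ones, a gap taken up under genotype.

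Gria3, an AMPA receptor subunit on the X chromosome, had 80.5% of its UMIs in FAPs, which made up 49.0% of cells. Smoc2/Hpse2 fibroblasts had 120, 127, 127 and 105 CPM, cycling fibroblasts had 101, 96.9, 112 and 96.7 CPM, and Ccl11/Hhip fibroblasts had 109, 119, 92.3 and 83.7 CPM. These 3 groups overlapped with each other and with the Fabp7-led cells, at 121 ± 21.2 CPM. Adventitial-type fibroblasts lay lower at 54.3 ± 9.83 CPM, so that Smoc2/Hpse2 fibroblasts held 2.20 times their level (1.92 to 2.47 over the libraries). Glia (61.4 ± 11.8 CPM) and chondrocytes (54.4 ± 19.0 CPM) overlapped with that level, and tenocytes stood at 26.2 ± 5.66 CPM.

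Cells of the vessel wall and of the muscle lineage were low in Gria3. Mural cells had 5.94, 5.46, 9.58 and 7.87 CPM and pooled FAPs 95.4, 97.2, 102 and 81.7 CPM, a ratio of 13.04 that ran from 10.4 to 17.8. Pericytes had 16 UMIs in all, 2.92 ± 1.99 CPM, and vascular smooth muscle 10.7 ± 4.36 CPM. Of the 134 mural Gria3 UMIs, 73 lay in the mural cells without a finer name, 9.55% of which were called doublets. Myogenic cells had 2.86 ± 0.44 CPM, 32.9 times below FAPs (30.4 to 40.8). KO replicate 2, the female library, was the lowest of the 4 libraries in each fibroblast group for this X-linked gene, narrowly so in cycling fibroblasts. It also had the lowest share of UMIs in the longest 5% of protein-coding genes, members left out, in each of these groups. In pooled FAPs that share was 8.31, 7.90, 7.83 and 7.42%. The cause of the lower Gria3 values was not tested.

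Gria4 was highest in the Fabp7-led cells, at 214, 135, 186 and 195 CPM, and there it exceeded glia in every library by 2.22 to 3.20 times. Glia stood at 71.2, 60.5, 58.5 and 60.9 CPM. Among fibroblasts the order differed from that of Gria3. Ccl11/Hhip fibroblasts led with 50.5, 46.4, 51.0 and 39.7 CPM, and Smoc2/Hpse2 fibroblasts were last with 6.41, 13.3, 11.8 and 6.73 CPM, a ratio of 4.90 (3.48 to 7.89). These values did not overlap. In pooled FAPs the libraries spread from 15.2 to 26.9 CPM.

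Gria2 had the narrowest distribution among the Gria genes. Glia held 662 of its 798 UMIs, or 83.0%, in 4.0% of the cells. The level there was 47.8, 24.6, 42.2 and 37.2 CPM, a mean of 37.9 ± 9.93 CPM, and the Fabp7-led cells followed at 9.21 ± 0.73 CPM, below glia in every library. The whole of the FAPs gave 24 UMIs, or 0.12 ± 0.04 CPM, and mural cells gave 0 UMIs, which allows up to 0.16 CPM. In Ccl11/Hhip fibroblasts 0 of 1766 cells held a Gria2 UMI. Gria1, the fourth AMPA subunit, gave 508 UMIs in all, 80.5% of them in FAPs, at 3.13 ± 0.62 CPM in Smoc2/Hpse2 fibroblasts.

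Grin2b, an NMDA receptor subunit that binds glutamate, separated the fibroblast groups. It stood at 63.5, 51.0, 52.8 and 53.3 CPM in Smoc2/Hpse2 fibroblasts and at 6.11, 4.45, 3.31 and 5.15 CPM in adventitial-type fibroblasts, a ratio of 11.6 (10.4 to 16.0). Ccl11/Hhip fibroblasts (34.1 ± 5.96 CPM) and cycling fibroblasts (29.6 ± 4.53 CPM) lay between and overlapped. FAPs held 91.7% of its UMIs. The Fabp7-led cells were at 51.6 ± 9.39 CPM and glia at 1.55 CPM, although both carry the glial markers.

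For Grin2a, the sister subunit, adventitial-type fibroblasts stood above Smoc2/Hpse2 fibroblasts. Adventitial-type fibroblasts had 16.5, 14.4, 12.5 and 18.8 CPM and Smoc2/Hpse2 fibroblasts 4.47 ± 1.83 CPM, a ratio of 3.48 (2.31 to 4.93), and chondrocytes stood at 6.68 ± 0.97 CPM. Grin1, without which no NMDA channel forms, was at or below 1.68 CPM in every class, with 362 UMIs in all. Of 7966 Smoc2/Hpse2 fibroblasts, 2006 had a Grin2b UMI, 61 a Grin1 UMI and 16 both. At this depth a cell without a Grin1 UMI is not shown to lack the RNA.

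Grid1, a delta receptor, was spread over the connective tissue cells. Cycling fibroblasts had 31.1, 19.4, 21.0 and 27.3 CPM, adventitial-type fibroblasts 17.1 ± 4.88 CPM and Smoc2/Hpse2 fibroblasts 14.6 ± 1.43 CPM, and the libraries of these neighbours overlapped. Pooled FAPs exceeded glia 9.14 times (6.61 to 15.2). Myotubes had 0, 11.3, 35.7 and 2.31 CPM from 12 UMIs, too few for an order.

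The levels rest on many cells. Since cells differed in depth, each was thinned to 2000 UMIs before the share of cells with a UMI was taken. On that footing Grik2 was seen in 68.4 ± 3.88% of glia (95% exact binomial interval of the pooled cells 66.0 to 70.9%, which covers counting error only) and in 62.5% of the Fabp7-led cells. Mast cells had 24.1 ± 7.63%, from 16.1% in KO replicate 2 to 32.7% in WT replicate 1, Smoc2/Hpse2 fibroblasts 3.03% and macrophages 0.54%. Macrophages, with a median depth of 10856 UMIs against 10902 in glia, serve here as the background for Grik2. Without thinning, 93.3% of glia and 51.6% of mast cells had a Grik2 UMI.

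For the other members the thinned shares were lower. Gria3 was seen in 18.9 ± 1.96% of Smoc2/Hpse2 fibroblasts, in 1.14% of mural cells and in 0.51% of myogenic cells. Gria4 was seen in 22.6 ± 3.31% of the Fabp7-led cells and 7.67 ± 1.10% of Ccl11/Hhip fibroblasts, against 0.13% of myogenic progenitors. Gria2 was seen in 5.64 ± 0.95% of glia and Grin2b in 8.10 ± 0.36% of Smoc2/Hpse2 fibroblasts, against 0.55% of adventitial-type fibroblasts. Grid1, Grik1 and Grin2a peaked at 3.98%, 2.99% and 2.30%. Unthinned, Gria3 was seen in 53.5% and Grin2b in 25.3% of Smoc2/Hpse2 fibroblasts.

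**Figure D3:**
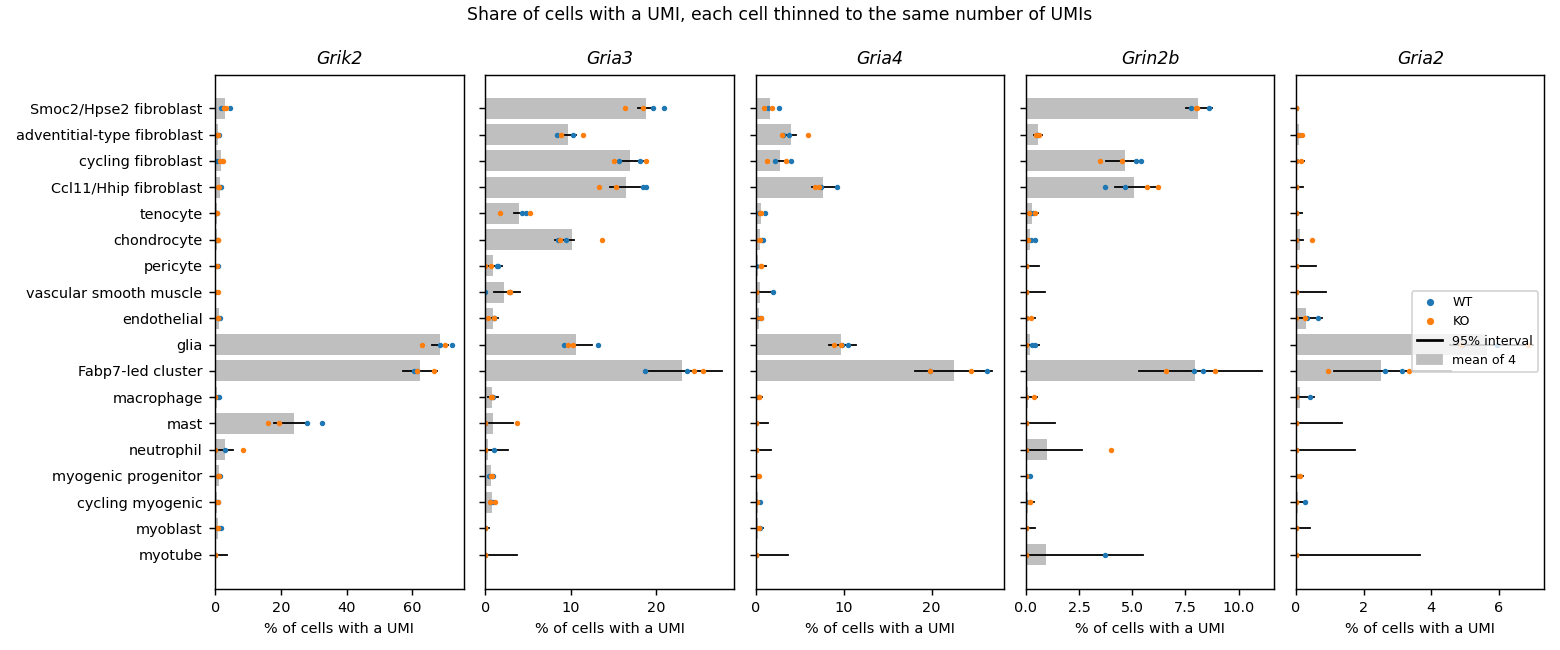
Share of cells (%) with at least 1 UMI of a gene after each cell was thinned to 2000 UMIs. Bars are the mean of 4 libraries, dots the libraries, and the line the 95% exact binomial interval of the pooled cells: Grik2 reaches 68.4% in glia, 24.1% in mast cells and 3.03% in Smoc2/Hpse2 fibroblasts.

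Several members were seen in the same cells. Of 1463 glia, 1367 held a Grik2 UMI, 467 a Gria4 UMI and 453 both. A Gria2 UMI was held by 291 glia, and 114 held both Gria2 and Gria4. Of 368 Fabp7-led cells, 323 held a Grik2 UMI, 213 a Gria3 UMI and 197 both. In Smoc2/Hpse2 fibroblasts 1083 of 7966 cells held both Gria3 and Grin2b, or 13.6%, where 53.1% held the former and 25.2% the latter. These counts were taken without thinning and grow with the depth of a cell. Whether a pair of genes shared cells beyond what their single counts give was not tested.

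The genes whose levels most resembled a member were found over the 18 class means among 13073 genes, with Pearson's r of log2(CPM + 1) as a description. The classes share libraries, and the nearest of so many genes is high by selection. Kcnh8, a potassium channel gene, was nearest to Grik2 (r = 0.91), Srgap3 to Gria3 (r = 0.95), Olfm2 to Gria4 (r = 0.96) and Ly6g6d to Gria2 (r = 0.99). Adarb2, a brain member of the ADAR family without known editing activity, was nearest to Grin2b (r = 0.92) and Mgat4c to Grin2a (r = 0.94). For Grik1 it was 2610316D01Rik (r = 0.89) and for Grid1 Ugp2 (r = 0.86). Between members, Gria3 went with both Gria4 and Grin2b (r = 0.82 each) and Gria2 with Grik2 (r = 0.69).

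The remaining receptor genes were taken as lists. Of 8 metabotropic genes 4 reached 10 CPM in some class. Grik5, which joins Grik1 or Grik2 in channels, stood at 20.0 ± 2.58 CPM in glia and at 22.6 ± 6.30 CPM in mast cells. For Grik2, mast cells came after glia and the Fabp7-led cells. Grik3 was highest in macrophages (20.7 ± 2.38 CPM) and Grik4 in the Fabp7-led cells (17.0 ± 4.35 CPM). Grin3a, an NMDA subunit that binds glycine, was highest in tenocytes at 24.1 ± 4.66 CPM.

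The metabotropic genes, which act through G proteins, divided the same fibroblast groups. Grm8 stood at 46.8, 44.2, 44.7 and 52.6 CPM in Smoc2/Hpse2 fibroblasts, 16.1 times the adventitial-type level. Grm7 was the reverse, at 33.6, 71.7, 33.1 and 76.0 CPM in adventitial-type fibroblasts and 5.31 times lower in Smoc2/Hpse2 fibroblasts. Both replicate 2 libraries lay above both replicate 1 libraries for Grm7, whatever the genotype. Grm6 was a mast cell gene (46.1 ± 3.61 CPM).

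**Figure D4:**
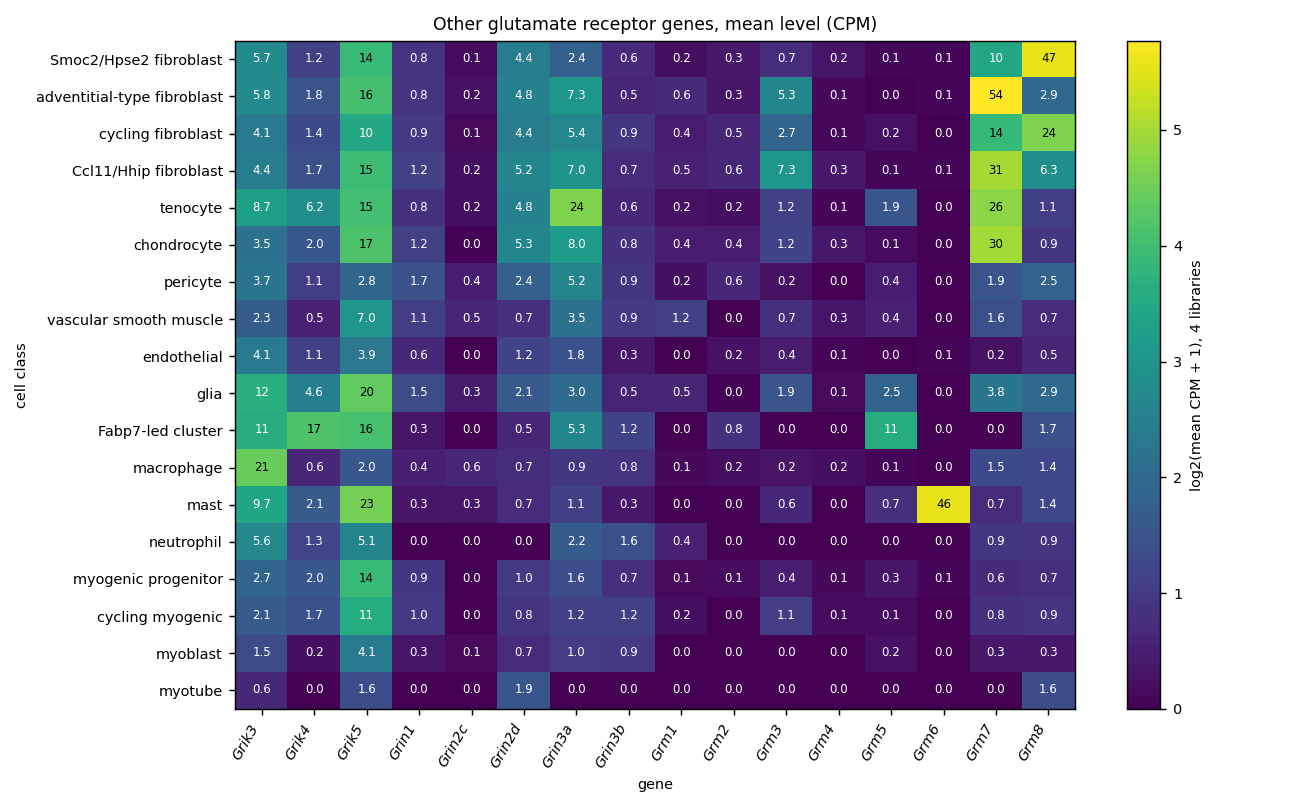
Mean level over 4 libraries (CPM, colour on a log scale, value printed in each square) of 16 other glutamate receptor genes (columns) in 18 cell classes (rows), each column to be read down the classes. Grm8 reaches 47.1 CPM in Smoc2/Hpse2 fibroblasts and Grm7 53.6 CPM in adventitial-type fibroblasts, while Grin1 does not exceed 1.68 CPM in any class.

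Partner proteins of the channels were measured as well, and 17 of 27 auxiliary and scaffold genes reached 10 CPM. Neto2, an auxiliary subunit of kainate receptors, stood at 65.9 ± 12.4 CPM in the Fabp7-led cells and 62.6 ± 5.55 CPM in glia, the classes highest in Grik2, and Neto1 at 33.0 ± 7.33 CPM in the former. Cacng7 and Shisa6, which associate with AMPA receptors, were highest in Smoc2/Hpse2 fibroblasts (41.2 ± 1.09 and 18.0 ± 2.76 CPM). Dlg2, a scaffold of the postsynaptic density, was highest in myotubes at 1282, 2156, 1229 and 1445 CPM, a class with 0 UMIs of Grik2.

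Genes for glutamate uptake and editing were measured too. Slc1a3, a glutamate transporter, stood at 65.4 to 73.8 CPM in Smoc2/Hpse2, Ccl11/Hhip and adventitial-type fibroblasts. Glul, which makes glutamine from glutamate, was highest in macrophages (199 ± 7.94 CPM). Adarb1, the gene of ADAR2, was highest in vascular smooth muscle (131 ± 22.0 CPM) and endothelial cells (84.1 ± 2.86 CPM), where Gria3 stood at 10.7 and 5.05 CPM. Cbln2, whose product binds delta receptors, was highest in adventitial-type fibroblasts at 33.7 ± 5.69 CPM.

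The genotypes were compared within each class on UMIs summed per library, with edgeR's quasi-likelihood test and Benjamini-Hochberg adjustment over all genes of the class. An exact permutation test of 2 against 2 libraries cannot go below p = 0.33. Over 19 classes and pools 86 tests of members could be made, and 0 were called at an adjusted p under 0.05. The 4 fibroblast groups, pooled FAPs and chondrocytes had 8 members tested each, and pericytes and myotubes had none with enough UMIs. The share of all genes called was 0% in the same test in most classes, including Smoc2/Hpse2, adventitial-type and Ccl11/Hhip fibroblasts, pooled FAPs, glia, Fabp7-led cells and pooled myogenic cells. It was 0.0139% in cycling fibroblasts, 0.0643% in vascular smooth muscle, 0.0425% in endothelial cells, 0.0201% in myoblasts and 0.151% in pooled mural cells. With DESeq2 1 of the 86 was called, Grik1 in FAPs, where that tool called 15 of all 18227 genes tested (0.0823%). Unadjusted p-values under 0.05 were found in 17 of the tests of members (19.8%) and in 3.84% of the tests of all genes in the same classes. The tests of members are not independent, since all classes share the libraries and the pools hold the cells of their parts. Grik1 and Grik2 recur among the 17, so the shares do not show an excess of changed members.

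The glial level of Grik2 differed little between genotypes, with a log2 fold change of KO over WT of -0.15 ± 0.10 (SE, adjusted p = 1.00). The fibroblast level of Gria3 gave -0.03 ± 0.11 in FAPs (adjusted p = 0.990) and Grin2b gave -0.13 ± 0.14 (adjusted p = 0.961). For Gria2 and Gria4 in glia the values were 0.13 ± 0.27 and -0.13 ± 0.13.

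Grik2 in cycling fibroblasts came nearest to a call. It stood at 6.31 and 7.84 CPM in WT and 16.3 and 15.5 CPM in KO, a log2 fold change of 1.18 ± 0.18 with an adjusted p of 0.075. It was called without KO replicate 1 (adjusted p = 0.0040) and without KO replicate 2 (adjusted p = 0.0034). Those fits have a single KO library, which is assumed to vary like the WT ones, and 85 and 27 of all genes were called in them against 2 in the full set, so they do not support a difference. In Smoc2/Hpse2 fibroblasts Grik2 stood at 12.8, 31.0, 20.8 and 18.6 CPM, a log2 fold change of -0.11 ± 0.34. The glial markers of cycling fibroblasts, summed over the whole list, were 31.7, 30.4, 33.0 and 31.1 CPM in the 4 libraries. Mbp, Cdh19 and Sox10 alone gave 2.45 CPM in the pooled libraries, from 88 UMIs. Per 100 UMIs of these markers there were 174, 305, 1215 and 607 Grik2 UMIs. The part of free RNA was not tested.

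Grik1 was lower in KO in the connective tissue classes where it was tested, without passing the adjusted test. Glia gave a log2 fold change of -1.34 ± 0.69 and the Fabp7-led cells 1.14 ± 0.49, neither of them called. FAPs had 9.39 and 10.4 CPM in WT and 4.88 and 5.99 CPM in KO, a log2 fold change of -0.83 ± 0.14 with an adjusted p of 0.961 by edgeR. With DESeq2 the adjusted p was 0.0301, where 15 of 18227 genes were called against 0 by edgeR. Chondrocytes had 7.82 and 12.3 CPM in WT and 4.71 and 4.27 CPM in KO (-1.23 ± 0.29), with 221 chondrocytes in KO replicate 1 against 474 to 1257 in the other libraries. Cycling myogenic cells, the highest class, gave -0.19 ± 0.27, and -0.81 with a call without KO replicate 1 (adjusted p = 0.0297), where 153 of all genes were called against 0 in the full set. The call in FAPs thus depends on the tool. Leaving out KO replicate 2 gave a call in adventitial-type fibroblasts (-1.94, adjusted p = 0.0081), again with a single KO library, the lowest at 4.60 CPM, and with 93 of all genes called against 0.

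Grik2 in macrophages (-2.09 ± 0.56, adjusted p = 0.872) and myoblasts (-1.71 ± 0.52, adjusted p = 0.514) had the largest negative values among tested members and rested on WT replicate 1, at 17.0 and 14.1 CPM. Leaving out KO replicate 1 or 2 gave a call in macrophages (adjusted p = 0.0265 and 0.0327), and leaving out WT replicate 2 gave one in myoblasts (adjusted p = 0.0050). In these fits of 2 libraries against 1, 134, 83 and 23 of all genes were called, against 0 in macrophages and 2 in myoblasts in the full set. In macrophages the summed glial markers were also highest in that library, at 136 CPM against 31.3 to 55.8 CPM, and in myoblasts they were not (35.3 CPM against 37.9 to 53.0 CPM). Their part in the difference was not tested.

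**Figure D5:**
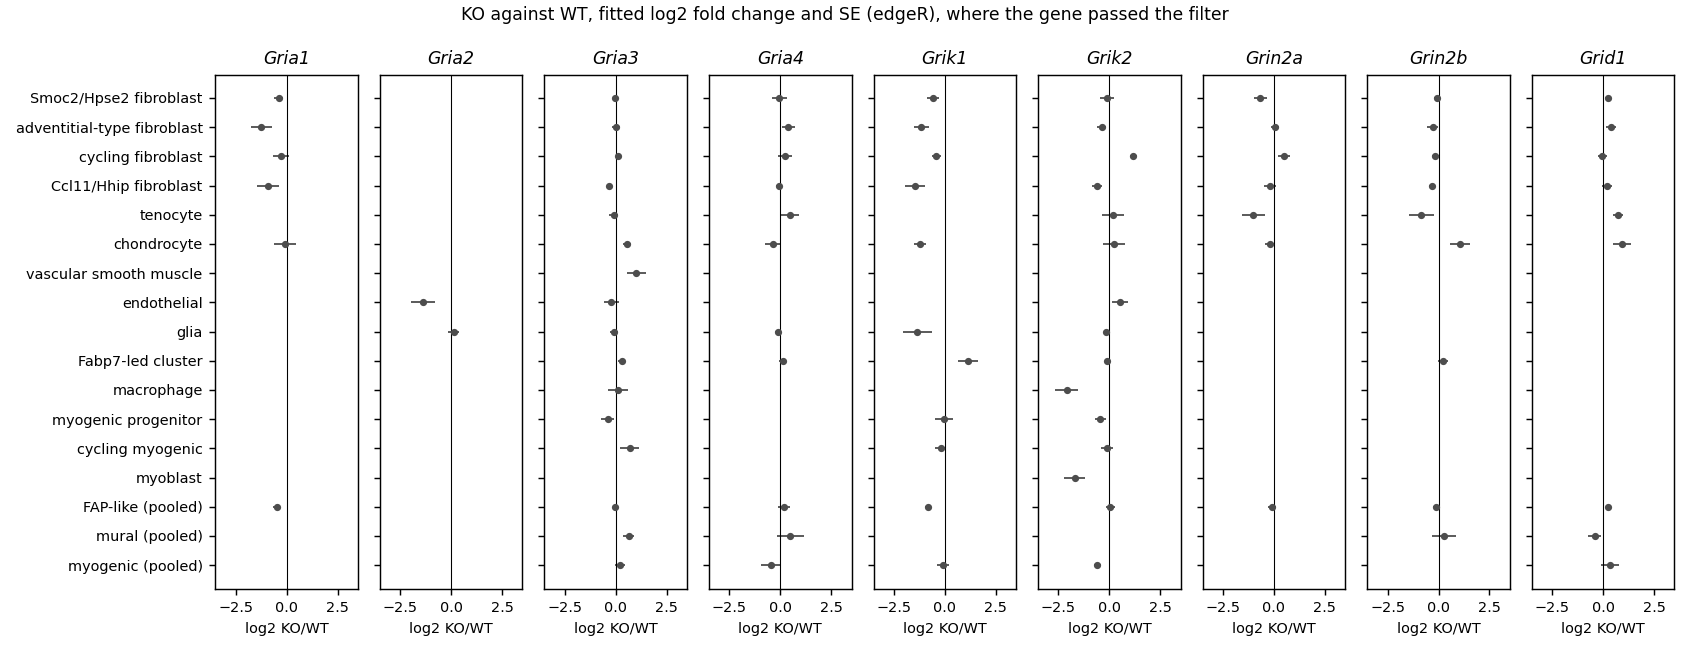
Log2 fold change of KO over WT with its standard error (edgeR, 2 libraries against 2) for every member tested in each class. Values to the right of 0 are higher in KO, and none passed an adjusted p of 0.05. Grik2 in cycling fibroblasts lies at 1.18 and Grik1 in FAPs at -0.83.

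The difference of the genotype effect between FAPs and mural, glial or myogenic cells was tested as an interaction with the library as a block. Of 25 tests of members 0 were called by edgeR and 3 (12%) had an unadjusted p under 0.05, against 4.10% of the tests of all genes. The tests share the FAPs and the libraries, so they are not independent either. Limma called 0, with 0 unadjusted. The share of all genes called was 0.252% for mural against FAPs, 0.0225% for glia against FAPs and 0.00554% for myogenic cells against FAPs. For Gria3 the interaction of mural cells with FAPs was 0.67 ± 0.22 on the log2 scale (adjusted p = 0.561).

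Among the listed genes outside the set, 1 of 86 tests of other ionotropic genes was called and 1 of 188 of genes for supply, uptake and editing, both by edgeR and in a single class each, and 1 of 25 interaction tests of other ionotropic genes was called. No test was called among 272 of auxiliary and scaffold genes or 30 of metabotropic genes, where 11 and 3 had an unadjusted p under 0.05 by edgeR.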

How the data were processed

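Leg muscles were dissociated and sequenced as droplet single-cell libraries (3′ chemistry, version 3). Per the labels, the authors made the deposited counts, which are raw UMIs per gene and cell, with Cell Ranger 7.2.0 on mm10. The cell filter was that of the study, with limits of 1000 and 6000 genes, 1000 and 25000 UMIs and 8% mitochondrial UMIs. They were clustered without integration (3000 variable genes, 30 components, Leiden resolution 0.3; scanpy 1.11.5) and classes were named from marker lists. Scrublet called 1.72 to 2.75% of cells per library as doublets. These stayed in, and a cluster of 312 cells, 87.5% of them called, was set aside. Also set aside were 87 lymphocytes and 146 cells that fell in no class at all, 129 of these from KO replicate 2. Intervals cover counting error only.

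Genotypes were compared on summed UMIs with edgeR 4.0.16 (TMM, filterByExpr, quasi-likelihood test) in R 4.3.3, in classes with at least 50 cells in every library (10 for myogenic stages). Neutrophils and mast cells did not reach this. Alternatives used DESeq2 1.42.0 and limma 3.58.1. On simulated counts 67 to 74% of genes changed by 1 on the log2 scale and 88 to 94% of those changed by 2 were recovered in FAPs, glia, mural and myogenic cells. There 100 genes of each size of change were altered at once, drawn from all tested genes, which eases the adjusted threshold. The shares therefore do not tell how often a change in a member would be called. All members are named. Genes of the other lists are named at 10 CPM or more in a class, or where called. Genes of like pattern are the nearest of the 3 found for each member. The members and lists were chosen with earlier results of these data known. Sequences come from GENCODE vM21 transcripts. Some listed genes are not reported here, with the results that rest on them.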

Additional observations from a re-analysis of the deposited data

How the results depend on the processing

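The count of members called between genotypes was 0, and 1 with DESeq2, 4 without the filter on low genes and 0 to 3 when 1 library was left out (2 without WT replicate 2, 3 without KO replicate 1, 3 without KO replicate 2). Over all genes of these classes the calls went up as well, from 34 to 598 without the filter and to between 396 and 1000 with 1 library left out, when a lone library of a genotype is assumed to vary like the others. It stayed 0 with RLE factors, without doublets, with looser cell filters, with clustering centred within libraries and at Leiden resolution 1. Over all genes, DESeq2 called 62, against 34 by edgeR. The 4 calls without the filter were Gria3 and Grik1 in chondrocytes and Grik2 in cycling fibroblasts and myoblasts. Grik2 in cycling fibroblasts was also called without KO replicate 1 (adjusted p = 0.0040) and without KO replicate 2 (adjusted p = 0.0034), at 1.16 and 1.21. Grik2 in macrophages was called without either KO library (adjusted p = 0.0265 and 0.0327), Grik1 in cycling myogenic cells without KO replicate 1 (-0.81), Grik1 in adventitial-type fibroblasts without KO replicate 2, and Grik2 in myoblasts without WT replicate 2 (-2.30). Without WT replicate 2, Gria4 in mural cells was called at 4.03 against 0.49. The interaction of Gria4 between mural cells and FAPs was 3.64 without WT replicate 2, a fit with a single WT library, against 0.34 in the full set. The labels do not say whether equal replicate numbers mark a shared litter or day. Same-numbered libraries deviated with correlations of 0.016 to 0.22 in 18 of 19 classes and pools, and -0.098 in myotubes. The replicate block gave 0 calls of members, with 23 unadjusted p under 0.05, while over all genes the share of unadjusted p under 0.05 went from 3.84% to 6.84%. Directions turned when 1 library was left out for Gria3 in FAPs (0.12 without KO replicate 2, range from -0.20), Gria4 in FAPs (-0.11 without WT replicate 1, -0.27 without KO replicate 1, range to 0.51, against 0.17) and Grin2b in FAPs (0.080 without WT replicate 1, range from -0.32); the cause was not tested. The number of members at 10 CPM stayed at 8, and of 135 levels recomputed 3 moved by over 1.5 times, all of Grik2 in neutrophils (6.39 CPM without doublets, 22.2 CPM as a mean over cells, 37.9 CPM without WT replicate 1, against 58.4 CPM). The number seen in at least 5% of cells of a class was 5, and 3 at 1000 UMIs or 8 without thinning. Vascular smooth muscle and myotubes could not be refitted after other clusterings, which left them too few cells. Pericytes were refitted at Leiden resolution 1 alone, where 42 of all genes were called against 0 in the main setting.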
